A study of Mus musculus with 168 samples.

Results

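The set described here holds 10 genes: Dcxr, Trim72, Fam212b, Crip2, Cpne2, Ly6d, Tcea3, Them5, Ddit4l and Ccl17. They were picked because their RPKM (a read count scaled to transcript length and library size) was higher in mice with spinal muscular atrophy (SMA) than in controls in several neuron populations at postnatal day 10, and because they are not among the textbook targets of p53. All 10 of 10 had a row in the deposited table, out of 39410 rows. The choice used the day 10 difference between genotypes, so that difference is given below as a description with no test. Days 2 and 5 came from other mice and were tested. The main fit of each population held all its ages, however. The spread behind the genotype tests of days 2 and 5 therefore includes the day 10 mice and is not independent of the choice.

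The study used the delta7 mouse model of SMA, in which the SMA mice have no functional Smn gene (Smn-/-) and their control littermates carry it (Smn+/+). Both genotypes were homozygous for the human SMN2 transgene (SMN2+/+) and for the SMN∆7 transgene (SMN∆7+/+), so by the labels the genotypes differ in Smn. Neurons of 6 populations were cut out by laser capture microdissection at postnatal days 2, 5 and 10, which the submitters describe as before symptoms, early and late: motor neurons of the oculomotor and trochlear nuclei (ocular below), of the facial nucleus, of the vagus nucleus, of the hypoglossal nucleus and of the lumbar spinal cord, and neurons of the red nucleus, which are not motor neurons. Captured cells were pooled per tube and polyA RNA was turned into libraries by Smart-seq2, so each value is a mean over neurons of 1 mouse, and fewer cells of a type and less RNA per cell cannot be told apart.

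In all, 34 mice (19 SMA, 15 control) gave 168 libraries, which were averaged within mouse and population to 160 samples in 36 groups of 3 to 7 mice; the same mice supplied several populations, so the populations of 1 age are not independent. Estimated depth ran from 0.342 M reads (mega-reads; a red nucleus control) to 16.3 M with a median of 5.89 M, and the second lowest was 1.44 M. Smn1 was between 4.32 and 63.3 RPKM in the 72 control samples and at most 4.24 RPKM in the 88 SMA samples, 70 of which were at 0. The motor neuron markers summed to 615 RPKM or more in each sample of the 5 motor populations and to 289 RPKM or less in each red nucleus sample. The acetylcholine-synthesising enzyme Chat, the defining marker, was at 0 in all red nucleus samples of day 2, in both genotypes, and in all SMA ones of day 10. Some ocular libraries hold cells of only 1 of the 2 nuclei, by their titles. For all 5 lumbar controls of day 5, and for no other group, the labels state that earlier deposited reads were merged in at mapping.

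SMN builds the small nuclear ribonucleoproteins of the spliceosome, and motor neurons are the cells most affected when it is scarce. The genes of the set do unrelated work. Dcxr reduces dicarbonyl compounds and L-xylulose, and Them5 is a mitochondrial acyl-CoA thioesterase linked to cardiolipin remodelling. Trim72 (also MG53) is a TRIM-family protein known for resealing the plasma membrane of striated muscle, and Cpne2 is a copine, a protein that binds phospholipid in the presence of calcium. Fam212b (now named Inka2) inhibits the kinase PAK4, Ddit4l (REDD2) restrains the growth-controlling kinase complex mTORC1, Tcea3 is a tissue-restricted form of the factor TFIIS that helps stalled RNA polymerase II resume, and Crip2 is a small LIM-domain protein known from heart and vessels. Ly6d is a surface protein held by a glycolipid anchor and best known as a marker of lymphoid progenitors, and Ccl17 is a secreted chemokine that attracts cells carrying the receptor CCR4.

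The genes lie on 7 chromosomes of the mouse genome (GENCODE M21 on GRCm38, the build mm10 that the submitters' processing notes name) and are all protein coding. Dcxr lies at chr11:120725399-120727281 on the minus strand and Ly6d at chr15:74762056-74763620 on the minus strand. The other 8 are on the plus strand: Trim72 at chr7:128003949-128011033, Fam212b at chr3:105704599-105720842, Crip2 at chr12:113140236-113145506, Cpne2 at chr8:94532990-94570531, Tcea3 at chr4:136247729-136274898, Them5 at chr3:94342099-94347352, Ddit4l at chr3:137621612-137628333 and Ccl17 at chr8:94810453-94812036. Trim72 overlaps the antisense gene Gm15533, and the strand setting of the read count is not given in the sources used here, so reads of the pair cannot be told apart; Gm15533 itself was listed at 0 in all facial and lumbar samples of day 10.

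RefSeq promoter sequence (GRCm38.p6) was at hand for 9 of the 10 genes, Ly6d being the one without. In the 250 bases before a start site, on either strand, the GC box GGGCGG was found in 5 of the 9 genes (Fam212b, Crip2, Cpne2, Tcea3 and Ddit4l) and in 32.7% of all 32851 promoters, and the CCAAT box (CCAAT) in 5 (Dcxr, Trim72, Fam212b, Crip2 and Tcea3) and in 33.8% of all promoters. TATAAA was found in Fam212b only among the 9, against 12.4% of promoters; the E-box CACGTG (6.02%), the AP-1 site TGANTCA (6.75%) and the cyclic AMP response element TGACGTCA (1.55%) were found in none. The p53 half-site, a motif of 10 bases, was found in Fam212b and Ddit4l and in 7.13% of all promoters. A gene counted if any of its start sites matched, and Fam212b and Crip2 had 2 each, while the shares count single promoters. The 2 measures are therefore not alike. A match is a string of letters and not a measured binding site. The 3 upstream stretches below are printed 5′ to 3′ in the gene's direction, ending at the base before the start site, because Dcxr gave the largest early difference and the other 2 hold the p53 half-site; capitals mark the motifs just named. They lie at chr11:120727285-120727534 (minus strand), chr3:105705208-105705457 (plus strand, the second start site of Fam212b) and chr3:137623422-137623671 (plus strand).
Dcxr: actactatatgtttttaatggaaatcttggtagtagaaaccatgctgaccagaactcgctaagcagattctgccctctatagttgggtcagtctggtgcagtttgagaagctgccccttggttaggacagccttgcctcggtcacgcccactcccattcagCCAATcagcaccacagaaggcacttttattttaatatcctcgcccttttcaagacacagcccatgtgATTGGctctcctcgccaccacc
Fam212b: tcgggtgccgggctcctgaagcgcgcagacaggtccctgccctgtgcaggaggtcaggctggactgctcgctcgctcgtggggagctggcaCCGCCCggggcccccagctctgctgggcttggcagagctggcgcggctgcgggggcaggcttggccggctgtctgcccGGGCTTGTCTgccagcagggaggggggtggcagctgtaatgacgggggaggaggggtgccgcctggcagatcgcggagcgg
Ddit4l: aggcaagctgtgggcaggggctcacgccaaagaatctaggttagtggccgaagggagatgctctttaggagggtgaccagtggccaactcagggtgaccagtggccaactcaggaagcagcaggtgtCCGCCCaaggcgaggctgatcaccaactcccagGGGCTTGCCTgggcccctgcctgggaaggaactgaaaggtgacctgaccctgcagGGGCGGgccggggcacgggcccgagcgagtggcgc
The half-site letters are GGGCTTGTCT in Fam212b, from base -81 to base -72 counted from the start site, and GGGCTTGCCT in Ddit4l, from base -90 to base -81. The 2 CCAAT boxes of Dcxr lie at -89 to -85 and, on the other strand, at -22 to -18.

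The first question was when the SMA difference appeared. The earliest differences past the threshold were those of Dcxr and Crip2 in lumbar motor neurons at day 5. With limma on log2(RPKM + 1) and an adjusted p (Benjamini-Hochberg over all genes of a contrast) under 0.05, 2 of 54 gene-population pairs tested were higher in SMA at day 5, where 0.0202% of all gene-population pairs tested were higher (0.0366% in lumbar motor neurons). The pairs are 54 and not 60 because 6 failed the filter on low values: Them5 in 3 populations, Tcea3 in 2 and Ly6d in 1. At day 2, 0 of 54 pairs passed in limma, against 0.0283% of all, with 8 pairs at an unadjusted p under 0.05, of which 6 were higher in SMA; over all gene-population pairs 8.61% had such a p in either direction. No other tool was run.

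**Figure D1:**
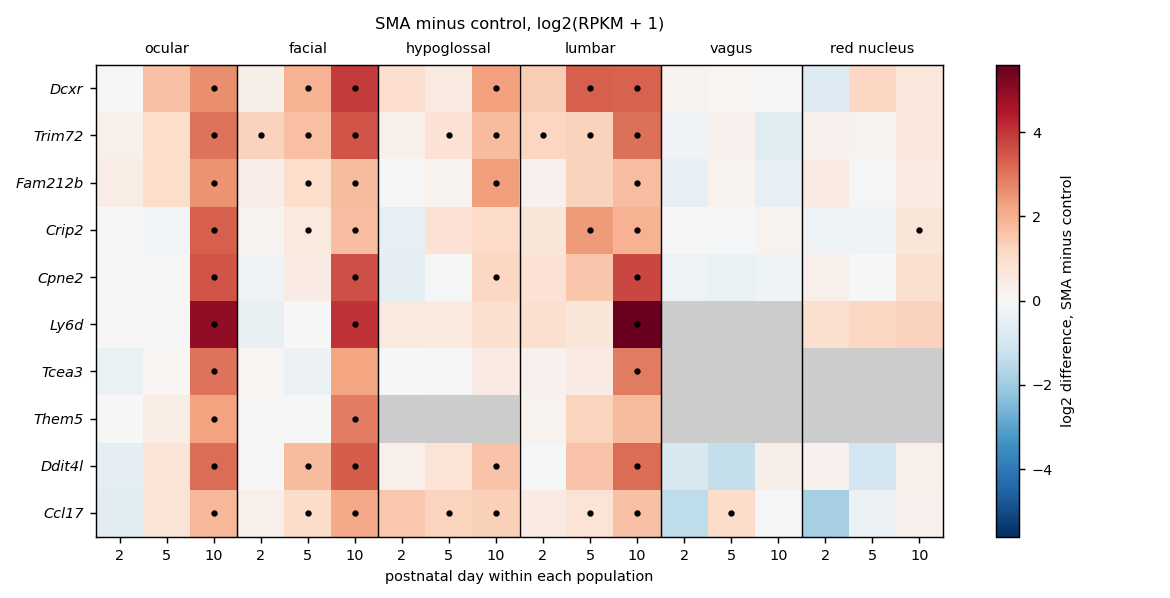
SMA minus control on the log2(RPKM + 1) scale for the 10 genes (rows) at postnatal days 2, 5 and 10 in 6 populations (columns); red is higher in SMA, blue lower, grey not tested, and a dot marks pairs in which every SMA mouse lay above every control mouse. Dots are on 2 pairs at day 2, 13 at day 5 and 35 at day 10, the last being the values the genes were chosen on.

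Dcxr in lumbar motor neurons had the largest difference of the 54 pairs at day 5. In lumbar motor neurons the 5 controls had 3.47, 3.62, 6.198, 6.41 and 6.98 RPKM and the 5 SMA mice 24.7, 66.2, 68.5, 70.05 and 105.4 RPKM. The lowest SMA mouse was above the highest control, and the log2 difference was 3.33 (SE 0.475), adjusted p = 0.000345 (limma). At day 2 the 4 lumbar controls had 4.95, 7.804, 9.56 and 11.5 RPKM and the 7 SMA mice ran from 4.66 to 99.2 with a median of 25.2 RPKM; the groups overlapped, and the difference of 1.37 (SE 0.471) did not pass, adjusted p = 0.668. The change of the difference from day 2 to day 5 was 1.96 (SE 0.669) and did not pass either, adjusted p = 0.705. In facial motor neurons at day 5 the 4 controls had 4.002, 4.58, 11.1 and 14.2 RPKM and the 3 SMA mice 22.9, 36.4 and 36.7 RPKM. Those groups did not overlap, yet the difference of 1.93 (SE 0.803) had an adjusted p of 0.848. In ocular motor neurons at day 5 the difference was 1.66 (SE 0.556), adjusted p = 0.5.

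Crip2 was the other gene past the threshold at day 5. The 5 lumbar controls had 5.02, 5.796, 7.602, 12.97 and 13.9 RPKM and the 5 SMA mice 28.5, 32.1, 41.97, 72.3 and 96.5 RPKM, with no overlap and a log2 difference of 2.4 (SE 0.338), adjusted p = 0.000327 (limma). At day 2 the 4 controls had 6.08, 7.36, 10.3 and 19.3 RPKM and the 7 SMA mice ran from 10.1 to 23.9 with a median of 15.9 RPKM, with overlap and a difference of 0.69 (SE 0.334), adjusted p = 0.874. Lumbar controls were also higher at the oldest age, a step that was not tested: the 4 controls of day 10 had 37.6, 57.8, 64.7 and 71.9 RPKM, all above every control of day 5, and the SMA range of day 5 spanned that of the day 10 controls. In the other populations the day 5 differences were 0.82 (hypoglossal), 0.54 (facial), -0.15 (ocular), -0.05 (vagus) and -0.23 (red nucleus) and none passed. In facial motor neurons every SMA mouse (51.2, 55.4 and 56.4 RPKM) was above every control (25.3, 37.9, 42.9 and 46.05 RPKM).

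Dcxr and Crip2 stayed past the threshold in lumbar motor neurons at day 5 in every alternative run. These were 34 runs with 1 mouse left out and 7 other settings. The log2 difference ran from 3.13 to 3.65 for Dcxr and from 2.16 to 2.59 for Crip2. Only runs without 1 of the lumbar mice of day 5 removed a mouse being compared. Lumbar mice of other ages affect only the shared spread, and mice without a lumbar library leave this fit unchanged. The pooling of earlier reads marks all 5 lumbar controls of day 5 and none of the SMA mice, so it cannot be told apart from genotype in that comparison. The depth of those controls was 4.08 to 11.1 M reads and that of the SMA mice 5.55 to 7.88 M. Summed marker levels in the same samples overlapped between genotypes for motor neurons (1458 to 1753 RPKM in controls, 1435 to 2176 in SMA), astrocytes (1575 to 1988 and 1719 to 2076) and vessels (11.2 to 19.1 and 14.3 to 43.8), and no gene of these lists passed at lumbar day 5. The part of these in the result was not tested.

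**Figure D2:**
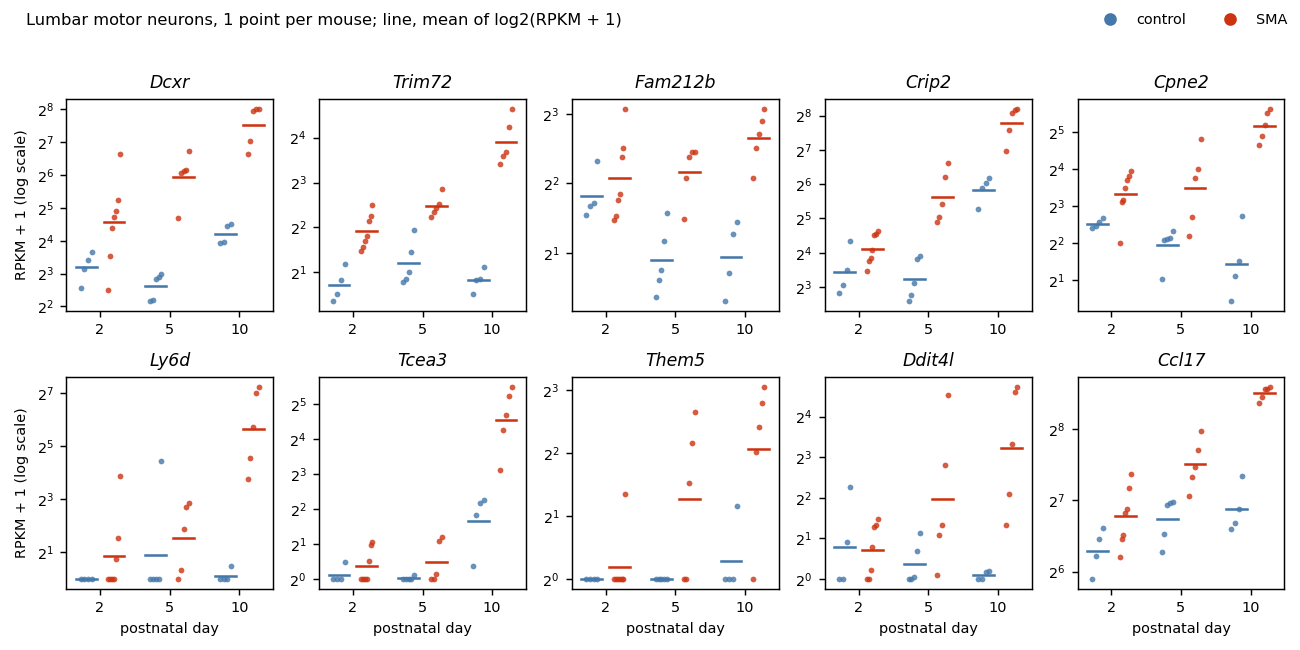
RPKM + 1 on a log scale (vertical) against postnatal day (horizontal) for each of the 10 genes in lumbar motor neurons; each point is 1 mouse, blue control and red SMA, and the line is the mean on the log scale. Dcxr, Crip2 and Ccl17 separate at day 5, and Trim72 is already apart at day 2. Fam212b, Cpne2, Ly6d, Tcea3 and Ddit4l are apart at day 10 only, and the groups of Them5 overlap at each age.

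Trim72 was the one gene whose groups did not overlap at day 2. In facial motor neurons the 5 controls of day 2 had 0.05597, 0.175, 0.2195, 0.346 and 0.591 RPKM and the 7 SMA mice ran from 0.982 to 4.402 with a median of 2.28 RPKM. The 4 lumbar controls had 0.279, 0.431, 0.759 and 1.28 RPKM and the 7 SMA mice ran from 1.78 to 4.68 with a median of 2.48 RPKM. Both pairs of groups were apart, as were 2 of all 60 pairs of the set at day 2, where 1.17% of all gene-population pairs had every SMA mouse above every control. The differences were 1.30 (SE 0.269), adjusted p = 0.0995 (limma), and 1.20 (SE 0.267), adjusted p = 0.281, so neither passed. The share was 0.255% in facial and 0.354% in lumbar motor neurons. In the labels, the library numbers of the 5 facial controls lay outside the span of the SMA libraries, 3 below and 2 above it, while 2 of the 4 lumbar controls lay within theirs. What these numbers stand for is not given in the sources used here, and their part in the result was not tested.

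At day 5 Trim72 was again apart in 3 populations. The 4 facial controls had 0.105, 0.395, 0.993 and 1.1 RPKM against 3.28, 3.94 and 5.55 RPKM in the 3 SMA mice, a log2 difference of 1.70 (SE 0.35) with an adjusted p of 0.0579 (limma). The 5 lumbar controls had 0.724, 0.7996, 1.01, 1.74 and 2.85 RPKM against 3.72, 4.03, 4.39, 4.73 and 6.24 RPKM in the 5 SMA mice, a difference of 1.27 (SE 0.27) with an adjusted p of 0.0773. Neither passed. With all populations in 1 fit and the mouse as a block, the facial differences passed at day 2 (1.30, adjusted p = 0.00977) and day 5 (1.72, adjusted p = 0.00942). The share over all genes in that joint fit was not counted, so nothing is read from these 2 calls. Over the 41 alternatives the facial adjusted p ran from 0.00977 to 0.39 at day 2 and from 0.00942 to 0.581 at day 5, and the lumbar one from 0.0216 to 0.442 at day 5. Without SMA mouse 16 the facial value of day 2 passed (adjusted p = 0.0452), and without control mouse 29 the lumbar value of day 5 passed (adjusted p = 0.0216). In hypoglossal motor neurons the 4 SMA mice of day 5 (1.27, 2.34, 2.52 and 2.804 RPKM) were just above the 4 controls (0.0465, 1.02, 1.13 and 1.25 RPKM).

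Over the whole set, 13 of 60 pairs had every SMA mouse above every control at day 5, where 2.26% of all pairs tested did. Of the 13, 6 were facial (Dcxr, Trim72, Fam212b, Crip2, Ddit4l and Ccl17), where 4.05% of all genes did so with 4 controls against 3 SMA mice. Another 4 were lumbar (Dcxr, Trim72, Crip2 and Ccl17; 0.769% of all genes), 2 were hypoglossal (Trim72 and Ccl17; 1.8%) and 1 was in vagus motor neurons (Ccl17; 3.01%). At an unadjusted p under 0.05, 21 of 54 pairs differed at day 5, 20 of them higher in SMA; over all pairs 5.84% differed in either direction. Of the 54 pairs, 7 passed the filter only through the day 10 SMA mice.

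Ddit4l, the mTORC1 inhibitor, was near 0 in facial controls of day 5 at 0, 0, 0.0457 and 0.0508 RPKM and at 1.29, 2.36 and 4.82 RPKM in the 3 SMA mice. The groups were apart, with a log2 difference of 1.79 (SE 0.395) and an adjusted p of 0.114 (limma). It passed without SMA mouse 77 (adjusted p = 0.0454) and without SMA mouse 258 of day 10, which changes only the shared spread (adjusted p = 0.0312). The 5 lumbar SMA mice of day 5 had 0.061, 1.11, 1.501, 5.97 and 21.97 RPKM against 0, 0, 0.0331, 0.607 and 1.18 RPKM in controls, with overlap and 1 SMA mouse far above the rest. In vagus motor neurons the order was the other way round: the 4 controls had 0.0881, 2.03, 2.57 and 2.92 RPKM and the 3 SMA mice 0, 0 and 0.0712 RPKM, a difference of -1.35 (SE 0.517), adjusted p = 0.901. The share of all genes with every SMA mouse below every control was not counted.

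Ccl17 had the highest RPKM of the set in lumbar controls of days 2 and 5. At day 5 the 5 lumbar controls had 76.4, 91.5, 121.1, 124.5 and 124.6 RPKM and the 5 SMA mice 132.6, 159.6, 176.5, 208.8 and 251.3 RPKM, apart but by a difference of only 0.77 (SE 0.198), adjusted p = 0.156 (limma). In hypoglossal motor neurons the 4 controls of day 2 had 9.02, 14.2, 19.4 and 51.5 RPKM and the 6 SMA mice ran from 24.3 to 79.9 with a median of 63.6 RPKM. Control mouse 28 lay within the SMA range, and the difference of 1.49 (SE 0.362) had an adjusted p of 0.15, which fell to 0.0155 (difference 1.95) without that mouse. At day 5 the difference there was 1.25 (SE 0.397), adjusted p = 0.676, with 4 SMA mice (46.4, 58.3, 72.4 and 82.9 RPKM) above the 4 controls (18.8, 20.9, 25.7 and 45.4 RPKM). At day 2 the Ccl17 difference was negative in 3 populations, none past the threshold: -1.85 (SE 0.759) in the red nucleus, -1.41 (SE 0.881) in vagus and -0.63 (SE 0.303) in ocular motor neurons, with adjusted p of 0.448, 0.811 and 0.439 (limma).

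Fam212b, the PAK4 inhibitor, was apart at day 5 in facial motor neurons (1.79, 2.45 and 3.54 RPKM in SMA, 0.0793, 0.831, 1.06 and 1.57 RPKM in controls). The 5 lumbar SMA mice had 1.82, 3.24, 4.21, 4.45 and 4.45 RPKM and the 5 controls 0.288, 0.521, 0.686, 1.25 and 1.98 RPKM, so the lowest SMA mouse lay below the highest control. The lumbar difference was 1.28 (SE 0.311), adjusted p = 0.146 (limma). The copine gene Cpne2 differed by 1.56 (SE 0.417) in lumbar motor neurons of day 5, adjusted p = 0.197, with SMA mice at 3.59, 5.53, 12.6, 15.1 and 27.3 RPKM and controls at 1.04, 3.25, 3.34, 3.42 and 4.06 RPKM. With all populations in 1 fit and the mouse as a block it passed (1.56, adjusted p = 0.0309), a fit whose share over all genes was not counted.

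Them5, Tcea3 and Ly6d were at 0 in most controls before day 10, with single controls at up to 4.42 RPKM for Tcea3 and 20.47 RPKM for Ly6d. Them5 was at 0 in 47 of the 48 control samples of days 2 and 5 and above 0 in 3 of 5 lumbar SMA mice of day 5 (0, 0, 1.86, 3.45 and 5.28 RPKM), a difference of 1.26 (SE 0.47), adjusted p = 0.437 (limma). Them5 passed with the mouse as a block in the joint fit (1.26, adjusted p = 0.0451), where the share over all genes was not counted. Tcea3 was at 0, 0, 0.105, 1.12 and 1.297 RPKM in the lumbar SMA mice of day 5 and at 0, 0, 0, 0 and 0.0721 RPKM in controls, a difference of 0.46 (SE 0.383). Ly6d was at 0, 0.261, 2.67, 5.51 and 6.25 RPKM in the same SMA mice, while 4 of the 5 controls were at 0 and control mouse 34 had 20.47 RPKM, the highest value of the group. In facial motor neurons of day 5 Ly6d was at 0 in all 7 mice.

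Start levels were tested in control mice of days 2 and 5 only, which the choice of genes did not use. Of 9 genes that passed the filter (all but Them5), 5 differed between the 6 populations in limma's F test with the mouse as a block: Crip2 (adjusted p = 7.27e-20), Ccl17 (7.69e-12), Cpne2 (7.18e-10), Dcxr (0.00142) and Fam212b (0.0464). The share among all genes tested was 37.5%. Ddit4l (0.0556), Trim72 (0.431), Tcea3 (0.561) and Ly6d (0.878) did not pass. The test used 48 samples of 11 mice.

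Crip2 was highest in vagus motor neurons, at 196.8 ± 37.1 RPKM (SD, n = 7), and in red nucleus neurons, at 115.6 to 208.3 RPKM (SD 37.5, n = 7), whose ranges overlapped. Facial (39.97 ± 15.8, n = 9), hypoglossal (37.3 ± 16.2, n = 8) and ocular motor neurons (20.3 ± 6.37, n = 8) came next with overlapping ranges, and lumbar motor neurons were lowest at 9.81 ± 4.75 RPKM (n = 9). The lowest vagus or red nucleus control, at 115.6 RPKM, was above the highest control of every other population, 71.4 RPKM. Cpne2 had its highest control level in vagus motor neurons too (19.9 ± 10.7 RPKM, n = 7), followed by hypoglossal (13.7 ± 8.12, n = 8) and facial (9.85 ± 2.91, n = 9), whose order differed by age: hypoglossal controls were at 19.6 ± 7.62 RPKM (SD, n = 4) at day 2 and 7.85 ± 2.07 RPKM (SD, n = 4) at day 5, facial ones at 10.8 ± 2.901 RPKM (SD, n = 5) and 8.65 ± 2.81 RPKM (SD, n = 4). Controls of red nucleus (4.399 ± 4.41, n = 7), ocular (4.01 ± 1.92, n = 8) and lumbar (3.801 ± 1.27, n = 9) were low and within each other's spread.

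Ccl17 ran in nearly the opposite order. Lumbar controls were highest at 94.9 ± 24.1 RPKM (n = 9), then ocular (71.2 ± 29.1, n = 8) and facial (47.4 ± 16.1, n = 9), then red nucleus (32.98 ± 16.2, n = 7) and hypoglossal (25.6 ± 14.99, n = 8), each overlapping its neighbour in that order. Vagus controls were lowest at 8.54 ± 4.04 RPKM (n = 7), with a highest mouse of 15.3 RPKM. Dcxr was at 16.03 ± 11.7 RPKM in hypoglossal motor neurons (n = 8) and 10.7 ± 9.62 in facial ones (n = 9), and 6 of 7 red nucleus controls were at 0. Trim72 was between 0.442 ± 0.3797 RPKM (facial, n = 9) and 1.097 ± 0.7902 RPKM (lumbar, n = 9) in all populations, with overlapping ranges. For Trim72 the smallest step in the values matched 1 read, and values of this size rest on few reads.

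**Figure D3:**
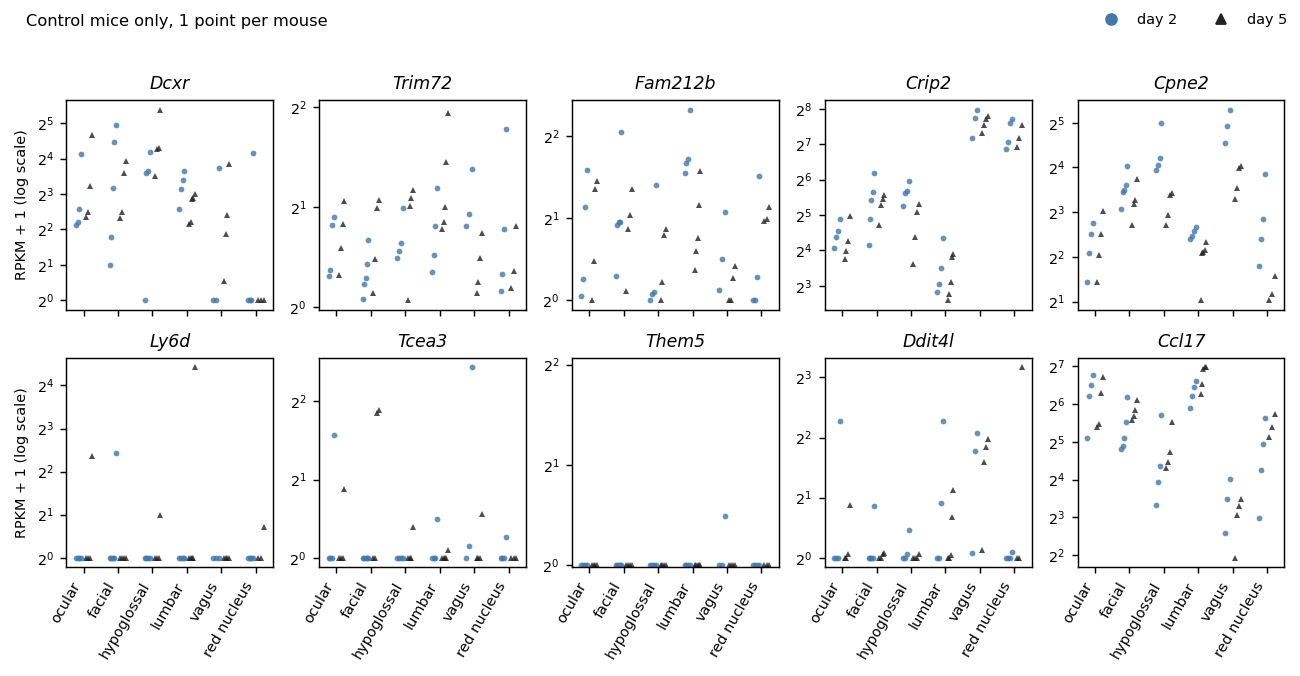
RPKM + 1 on a log scale (vertical) in control mice of day 2 (circles) and day 5 (triangles) for the 10 genes in 6 populations (horizontal); each point is 1 mouse. Crip2 is highest in vagus and red nucleus, Ccl17 is lowest in vagus, and Ly6d, Tcea3 and Them5 are at 0 in most mice.

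From day 2 to day 5 no gene of the set changed in controls past the threshold (0 of 54 pairs in limma, against 0.313% of all; 7 pairs at an unadjusted p under 0.05, 2 of them upward, against 9.83% of all pairs). The lowest unadjusted p was that of Cpne2 in vagus motor neurons, which differed by -1.21 (SE 0.306), adjusted p = 0.263. The SMA difference itself did not change past the threshold between days 2 and 5 either (0 of 54 pairs, against 0.00303% of all; 7 at an unadjusted p under 0.05, all upward, against 6.15% of all pairs in either direction). A difference that passes at day 5 and not at day 2 is therefore not shown to have grown.

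At day 10 the values that chose the set were as follows. Every SMA mouse was above every control in 35 of 60 pairs (10 ocular, 9 facial, 9 lumbar, 6 hypoglossal, 0 vagus and 1 red nucleus), where 2.4% of all pairs tested were, and by population 2.32% (ocular), 3.32% (facial), 2.76% (lumbar), 1.86% (hypoglossal), 0.569% (vagus) and 3.56% (red nucleus). The same 9 mice supplied these populations. Since the rule used these values, nothing is read from that count.

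Among the enzymes, Dcxr was far above its controls. In facial motor neurons the 4 controls of day 10 had 13.8, 14.2, 16.4 and 17.9 RPKM and the 4 SMA mice 162.98, 223.7, 289.1 and 342.7 RPKM, a 16.4-fold ratio of the means. The ratio was 11.1 in lumbar motor neurons (198.7 ± 77.02 RPKM (SD, n = 5) in SMA), 7.03 in ocular and 5.02 in hypoglossal ones, all without overlap. In vagus motor neurons Dcxr was at 4.81, 8.01, 12.1 and 35.2 RPKM in controls and 9.36, 9.99, 10.1, 13.4 and 15.1 RPKM in the 5 SMA mice, with overlap. Them5 was at 0 in all 4 facial controls, where 3 reads would give at most 1.22 RPKM, and at 2.71, 3.77, 5.802 and 22.02 RPKM in the 4 SMA mice. In lumbar motor neurons 1 of 5 SMA mice was still at 0 and the others had 3.05 to 7.28 RPKM.

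Trim72, the membrane repair protein, was at 0.4095, 0.773, 0.811 and 1.07 RPKM in the facial controls of day 10 and 18.1, 18.6, 20.3 and 20.4 RPKM in SMA, with no overlap. In lumbar motor neurons controls had 0.418, 0.779, 0.807 and 1.18 RPKM and SMA mice 9.67, 11.1, 11.8, 17.9 and 23.99 RPKM. Hypoglossal SMA mice had 8.02, 8.44, 9.04, 11.02 and 13.7 RPKM, above all 4 controls (0.853, 1.24, 2.72 and 5.57 RPKM). In vagus motor neurons all 5 SMA mice (0.378, 0.3905, 0.533, 0.652 and 0.742 RPKM) lay within the control range (0.199 to 2.82 RPKM). Cpne2, the phospholipid binder, was at 2.07, 3.399, 4.84 and 5.41 RPKM in facial controls and 53.1, 53.8, 55.5 and 67.6 RPKM in SMA, and at 0.348, 1.16, 1.87 and 5.59 RPKM against 24.4, 28.6, 35.5, 44.9 and 48.6 RPKM in lumbar motor neurons. In vagus motor neurons Cpne2 was at 20.4 ± 2.77 RPKM (SD, n = 4) in controls and 17.1 ± 3.34 RPKM (SD, n = 5) in SMA, with overlap.

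**Figure D4:**
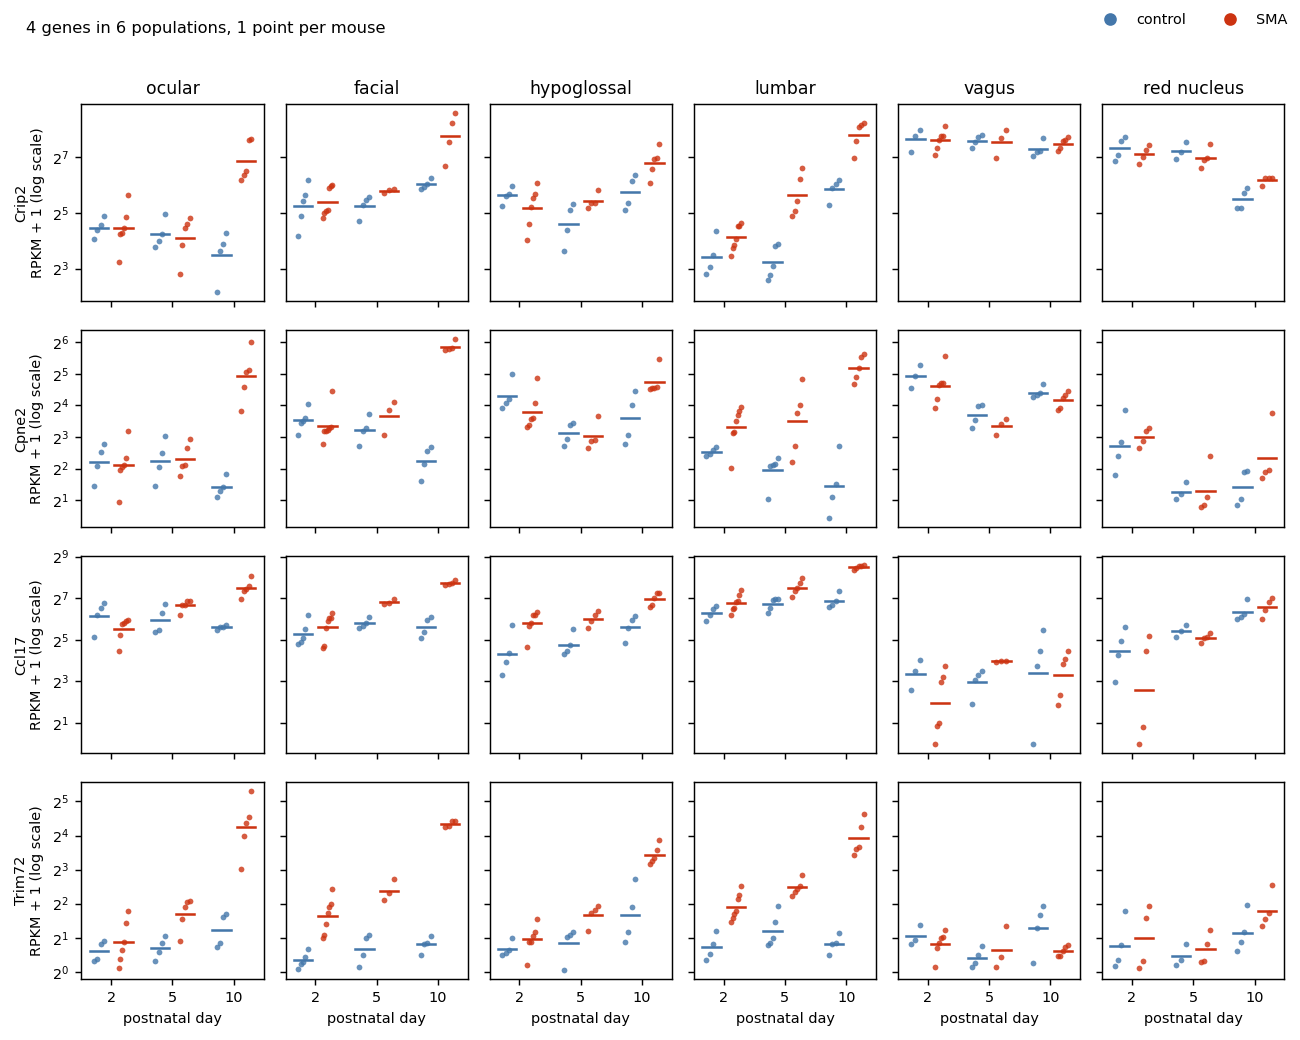
RPKM + 1 on a log scale (vertical) against postnatal day (horizontal) for Crip2, Cpne2, Ccl17 and Trim72 (rows) in 6 populations (columns); each point is 1 mouse, blue control and red SMA, and lines are means on the log scale. In vagus motor neurons Crip2 stays at or below 275.1 RPKM and above every lumbar control in both genotypes at every age, while lumbar SMA mice lie at 10.1 to 23.9 RPKM at day 2 and 124.8 to 293 RPKM at day 10.

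Crip2, the LIM protein, was higher in all 5 ocular SMA mice of day 10 (70.98, 79.9, 88.6, 193.2 and 200.9 RPKM) than in the 4 controls (3.46, 11.4, 13.7 and 18.4 RPKM). In lumbar motor neurons controls had 37.6, 57.8, 64.7 and 71.9 RPKM and SMA mice 124.8, 190.2, 268.4, 284.1 and 293.01 RPKM. It was the one gene apart in the red nucleus, where the 4 SMA mice had 60.6, 74.2, 74.99 and 75.02 RPKM and the 4 controls 34.9, 35.4, 50.9 and 58.4 RPKM, a ratio of 1.59. In vagus motor neurons, where the start level was highest, Crip2 was at 156.2 ± 33.01 RPKM (SD, n = 4) in controls and 178.6 ± 25.8 RPKM (SD, n = 5) in SMA.

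Ly6d, the lymphoid surface marker, was at 0 in most controls of day 10. Of the 4 lumbar controls of day 10, 3 were at 0 and 1 had 0.395 RPKM, while the 5 SMA mice had 12.6, 22.5, 52.3, 128.1 and 149.6 RPKM. In ocular motor neurons 3 of 4 controls were at 0, 1 had 0.102 RPKM, and the SMA mice had 14.6, 20.3, 22.3, 42.2 and 92.8 RPKM. All 4 facial controls were at 0, where 3 reads would give at most 1.57 RPKM, and the SMA mice had 0.497, 13.3, 49.2 and 66.8 RPKM, 1 of them under that level. In hypoglossal motor neurons 1 of 5 SMA mice had 20.8 RPKM and the others 0.266 or less.

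Ddit4l and Tcea3 followed with lower levels. Ddit4l was at 0 in all 4 facial controls of day 10, where 3 reads would give at most 0.399 RPKM, and at 5.55, 6.96, 8.32 and 23 RPKM in the SMA mice. In ocular motor neurons Ddit4l was at 3.67, 7.16, 7.97, 16.1 and 18.1 RPKM in SMA and at most 0.796 RPKM in controls, 3 of which were at 0. Tcea3, the elongation factor, was above 0 in all lumbar controls of day 10, which had 0.28, 2.54, 3.49 and 3.83 RPKM, and below the SMA mice at 7.67, 18.1, 25.1, 36.5 and 44.5 RPKM. In hypoglossal motor neurons Tcea3 was at 0, 2.94, 3.93 and 7.17 RPKM in controls and 2.93, 3.302, 3.56, 4.29 and 5.403 RPKM in SMA, with overlap.

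Fam212b was at 0, 0, 0.147 and 0.279 RPKM in hypoglossal controls of day 10 and 1.44, 4.63, 5.31, 5.87 and 8.03 RPKM in SMA, and in facial motor neurons at 1.51, 1.62, 1.82 and 3.84 RPKM against 6.21, 10.2, 10.7 and 11.5 RPKM. Ccl17, the chemokine, was well above 0 in controls too. Lumbar controls had 95.8, 101.4, 116.8 and 161.8 RPKM and SMA mice 329.4, 348.96, 376.98, 378.5 and 386.6 RPKM, a ratio of 3.06; the ratio was 4.21 in facial, 3.85 in ocular and 2.46 in hypoglossal motor neurons, all apart. In the red nucleus the 4 controls (63.8, 68.4, 75.3 and 122.4 RPKM) and the 4 SMA mice (63.4, 85.2, 111.3 and 128.2 RPKM) overlapped.

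Markers of other cells were read in the same samples, since several of the genes are known from muscle, lymphoid or epithelial cells. Of the markers of T, B and dendritic cells, 2 passed the filter and could be tested. In lumbar samples of day 10 the sum of the list was 9.31 to 21 RPKM in SMA and 19.6 to 21.7 RPKM in controls. The muscle list summed to 0.817 to 8.23 RPKM in lumbar SMA mice and 0.546 to 5.90 RPKM in controls, and the epithelial and meningeal list to 12.4 to 32 and 4.17 to 30 RPKM, with Krt5, Krt8 and Krt18 at 0 in both. Of the astrocyte list, Gfap was higher in facial SMA samples of day 10, at 17 ± 4.88 RPKM (SD, n = 4) against 1.63 ± 0.991 (n = 4), a log2 difference of 2.81 (SE 0.544), adjusted p = 0.00742 (limma). The whole list of 7 astrocyte markers summed to 1293 to 1732 RPKM in those SMA samples and 1253 to 1550 RPKM in controls, and its part in the facial values was not tested. Mbp was higher in SMA red nucleus samples of day 2 (13.9 ± 4.12 against 2.55 ± 1.64 RPKM, SD, n = 4 each, adjusted p = 0.0351), where no gene of the set passed. No other marker passed in any of the 18 comparisons of genotype. Some summed levels still differed at day 10. In ocular samples the motor neuron list was at 658.6 to 1128 RPKM in SMA and 1127 to 1269 RPKM in controls, and the pair of red nucleus markers at 9.07 to 176.9 RPKM in SMA and 4.74 to 16.9 RPKM in controls. In facial samples the microglia and macrophage list was at 10.6 to 43.3 RPKM in SMA and 3.82 to 12.1 RPKM in controls. Hypoglossal samples had the pair of red nucleus markers at 17.7 to 27 RPKM in SMA and 3.46 to 13.1 RPKM in controls, without overlap. The part of these in the ocular, facial and hypoglossal values of the set was not tested.

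Related genes were read in 10 lists: carbonyl reduction, membrane repair, PAK kinases and INKA proteins, LIM proteins, copines, the Ly6 family, elongation factors, acyl-CoA thioesterases, mTORC1 control and chemokines. Over 18 comparisons of genotype 2 gene-population pairs passed, both at lumbar day 10 and both higher in SMA. Csrp3, a muscle LIM protein of the list around Crip2, was at 17.2 ± 12.8 RPKM in SMA (SD, n = 5) and 0.277 ± 0.413 in controls (n = 4), a log2 difference of 3.42 (SE 0.602), adjusted p = 0.00223 (limma). Cbr1, a carbonyl reductase of the list around Dcxr, was at 80.9 ± 12.2 RPKM in SMA and 56.3 ± 8.09 in controls. The difference was 0.52 (SE 0.128), adjusted p = 0.0497 (limma), and it passed in 10 of 34 fits with 1 mouse left out. Those 34 include fits without a mouse that gave no lumbar library, which repeat the main fit. In the other 8 lists (Ly6 16 of 25 genes tested, thioesterases 14 of 16, mTORC1 18 of 18, chemokines 21 of 30, membrane repair 17 of 18, PAK and INKA 9 of 9, copines 7 of 7, elongation factors 12 of 12) no gene passed at any age. With all populations in 1 fit and the mouse as a block, 10 pairs of these lists passed. Of these, 5 were higher in SMA, Csrp3 among them, and 5 lower (Ccl1, Ccl11, Ccl24, Ccl27a and Rptor). The share over all genes in that fit was not counted, so nothing is read from the 10.

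At lumbar day 10 the median log2 difference was 0.0528 over all genes tested. The LIM proteins had a median of 0.231, mTORC1 control 0.072, the chemokines 0.0127 and the copines -0.392, while Cpne2 itself was at 3.73. The list of classic p53 targets, which the rule set aside, gave 43 pairs higher in SMA and 0 lower over the 18 comparisons, 38 of them at day 10 (0.281% of all pairs were higher then), with 16 of 41 tested genes passing at least once. At lumbar day 5 the p53 list had 2 genes past the threshold and a median log2 difference of 0.613, against 0.0259 for all genes. That list was assembled with earlier results of these data known, so its count is not independent evidence of its direction.

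No neighbour on the chromosome passed the threshold. Of the 21 nearest genes on either side, 15 could be tested at day 10, giving 84 neighbour-population pairs, of which 0 passed in limma and 5 had an unadjusted p under 0.05, as did 6.85% of all pairs at day 10. Ccl17 lies beside the chemokine gene Cx3cl1, which was at 63.8 RPKM in facial controls and 58.6 RPKM in SMA (means), a difference of -0.11 where Ccl17 differed by 2.11. Ly6d lies beside its relative Lynx1, which differed by -0.13 in lumbar motor neurons where Ly6d differed by 5.54, and Them5 lies beside Them4, which differed by 0.07 in lumbar motor neurons where Them5 differed by 1.77. Crip1, beside Crip2, was at 2.35 RPKM in facial controls and 12.9 RPKM in SMA with a difference of 2.23 (SE 0.78), adjusted p = 0.314. In hypoglossal motor neurons Crip1 differed by 2.72 (SE 0.59), adjusted p = 0.0977, and passed without control mouse 253 or 254.

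Read over all 160 samples as a description, the genes most like each member were often shared. Pmaip1, a cell death gene and textbook p53 target, was among the 2 most similar genes outside the set for Trim72 (Pearson r = 0.801), Them5 (0.747), Tcea3 (0.716), Ddit4l (0.692), Fam212b (0.689) and Ly6d (0.652). Fas, a death receptor gene, was so for Trim72 (0.775), Fam212b (0.736) and Ddit4l (0.661). Dcxr was closest to Ddx24 (0.714) and Lrdd (0.709), Cpne2 to Gpx3 (0.674) and 2010001M06Rik (0.668), and Crip2 to Cyb561 (0.655) and Fam49a (0.627). Ccl17 stood apart, closest to the neurofilament gene Nefh (0.798) and to Cplx1 (0.786). The second names for the rest were Gtse1 for Them5 (0.72), Gm26815 for Tcea3 (0.691) and Iapp for Ly6d (0.605). Within the set, r was 0.749 between Tcea3 and Them5 and 0.709 between Dcxr and Trim72, but -0.295 between Crip2 and Ccl17 and -0.0235 between Cpne2 and Ccl17. These samples share mice and include the day 10 SMA values that chose the set.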

How the data were processed

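The deposited table holds RPKM values that the authors made per gene and library; per the submitters' processing notes STAR 2.4.1c and the builds mm10 and hg19 were used, and the counting program, annotation and strand setting are not given in the sources used here. RPKM values are not counts, so no count model was used. Libraries of 1 mouse and population were averaged to 160 samples, and depth was estimated from the smallest steps of the values. In R 4.3.3, limma 3.58.1 (lmFit, eBayes with trend) was fitted per population to log2(RPKM + 1) with a pseudocount of 1, on genes at RPKM of at least 1 in as many samples as the smallest group; log2 differences on this scale understate changes of low genes. Benjamini-Hochberg adjusted p-values under 0.05 over all genes of a contrast counted as past the threshold, two-sided. The mouse number in the labels names the replicate, so p-values measure the spread between mice. The procedure was also run on simulated, normally distributed log2 values. Those held no excess of zeros and no single outlying mice, so that run does not cover genes with low values.

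The 10 genes and all lists were chosen with earlier results of these data known. Named besides them are up to 3 genes past the threshold per list, the nearest neighbours and the 2 genes most correlated with each. Alternatives were a pseudocount of 0.1, no filter, a filter at RPKM 5, only the groups compared, each library as a sample, quantile normalization, 1 joint fit with the mouse as block, and each mouse left out in turn. The mouse number pairs samples across populations, where the same animal supplied them, and never across genotypes.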

Additional observations from a re-analysis of the deposited data

Results flagged for a closer look

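Combinations of a gene with a group of 4 or more mice were read, leaving out groups with all values equal. Of these 280 combinations, 58 (20.7%) had 1 mouse set apart from the rest by Dixon's criterion. Chance gives about 1 in 20 for normally distributed values. Many groups here hold zeros, so that rate is not a fair comparison. In 35 of the 58 all other mice were at 0, and the other 23 follow as RPKM values. Low mice were Dcxr in hypoglossal control mouse 28 of day 2 (0), Trim72 in hypoglossal control mouse 75 of day 5 (0.0465), Crip2 in red nucleus SMA mouse 258 of day 10 (60.6) and Cpne2 in lumbar control mouse 30 of day 5 (1.04). At day 2, mice set apart were 16 for Fam212b (0.412) and Tcea3 (0.620) in vagus SMA samples, 244 for Fam212b in hypoglossal controls (1.65), and 28 for Ddit4l in hypoglossal controls (0.373). SMA mouse 211 was set apart for Cpne2 in facial (20.7) and lumbar (3.04) motor neurons and for Ly6d in the red nucleus (8.37). SMA mouse 209 was so for Ddit4l in facial (1.33) and vagus (2.90) motor neurons, and SMA mouse 206 for Ly6d in lumbar ones (13.6).

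At day 5, mice set apart were SMA mouse 31 for Ly6d in hypoglossal motor neurons (6.84), SMA mouse 76 for Them5 (2.60), control mouse 75 for Ddit4l (0.843) and SMA mouse 61 for Ccl17 (72.7), the last 3 in ocular motor neurons. At day 10, SMA mouse 249 was set apart for Cpne2 in hypoglossal motor neurons (43.7) and in the red nucleus (12.5), and for Ddit4l in the red nucleus (3.80). SMA mouse 258 was so for Ly6d in hypoglossal motor neurons (20.8) and control mouse 254 for Ddit4l in the red nucleus (1.42).

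Ddit4l at day 5 was the one gene with opposite directions: every facial SMA mouse was above every control (log2 difference 1.79) and every vagus SMA mouse below every control (-1.35). Neither difference passed the threshold. The vagus pair was 1 of 60 with every SMA mouse below every control at day 5. The share of all genes with that order was not counted, so nothing is read from it. The difference between these populations was not tested.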

How the results depend on the processing

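At day 5, 2 gene-population pairs were higher in SMA, and 5 with all populations in 1 fit with the mouse as replicate block (correlation 0.0366 within a mouse). The share over all genes in that block fit was not counted, so nothing is read from its counts. With 1 mouse left out the day 5 count ran from 2 to 3. At day 2 the count was 0, and 1 in that block fit; with 1 mouse left out it ran from 0 to 1, being 1 without mouse 28 or 16. Dcxr and Crip2 at lumbar day 5 kept their call in 68 of 68 values with 1 mouse left out and 14 of 14 under other settings. Many of the 68 left out a mouse of another age or one without a lumbar library, so they did not remove a mouse being compared. The number of genes whose control level differed between populations (5) ran from 4 to 5 with 1 mouse left out. Both day 5 minus day 2 counts stayed at 0 with 1 mouse left out. Neither of the 2 day 5 differences past the threshold reversed direction. Some differences that did not pass changed sign over the alternatives, while others kept theirs. At day 5 the Crip2 difference ran from -0.48 to 0.18 in ocular motor neurons and from -0.26 to 0.23 in vagus ones. For lists and neighbours the alternatives were chosen after seeing the data: family lists gave 2 pairs, 1 with quantile normalization, 10 with the replicate block and 1 to 3 with 1 mouse left out. Neighbours gave 0 pairs, and 0 to 1 with 1 mouse left out. The p53 list gave 43 pairs, and 33 to 47 with 1 mouse left out. The causes were not tested. Low values limit Trim72, Ly6d, Them5 and Ddit4l, where a few reads make some of the values. Other values rest on more reads beside mice of the same group at or near 0. Examples at lumbar day 5 are Ly6d in control mouse 34 (about 79 reads) and Ddit4l in SMA mouse 77 (about 332 reads).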

Other observations

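In the red nucleus at day 10, SMA mouse 249 had the highest value of the 4 SMA mice for 7 of the 10 genes, among them Dcxr at 37.5 RPKM and Trim72 at 4.89 RPKM. Elsewhere at day 10, SMA mouse 258 was highest for 6 genes in facial and 6 in hypoglossal motor neurons, and SMA mouse 250 for 6 in lumbar ones. No SMA mouse was highest for more than 3 in ocular or vagus motor neurons. The share over all genes was not counted. In the 4 red nucleus SMA samples of day 10 Chat was at 0, and Prph, a neurofilament-like gene of motor neurons, was at 43.7 RPKM in mouse 249 and 47.8 to 80.7 RPKM in the others. The part of captured motor neurons in the values of mouse 249 was not tested.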
